A study of Mus musculus with 7 samples.

Results

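The 10 genes described here move calcium into and out of the sarcoplasmic reticulum of the heart muscle cell or hold the release machinery in place: Atp2a2, Pln, Sln, Ryr2, Casq2, Trdn, Asph, Fkbp1b, Jph2 and Slc8a1. They were listed by symbol, with earlier results of these data known, and every probe whose RefSeq transcript maps to 1 of them was taken, which gave 18 of the 55681 probes of the array. Dim probes were filtered out, by asking for a signal marked as well above background on 3 or more arrays in either group, and 17 of the 18 probes and 9 of the 10 genes were kept, among 22348 features tested in all. The gene not kept was Sln. Of the 17 kept probes, 16 were well above background on all 7 arrays, and the other was a dim probe of Fkbp1b, described with that gene.

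With each heartbeat, calcium entering through L-type channels opens ryanodine receptors, and the calcium stored in the sarcoplasmic reticulum floods the cytosol and starts contraction. Relaxation follows as the pump SERCA2a returns calcium to the store under the brake of phospholamban, while the sodium-calcium exchanger expels the remainder from the cell. In failing and hypertrophied hearts, reduced pump activity relative to phospholamban is a textbook feature, and the stress kinase p38α is known to act on MEF2 factors, which take part in cardiac gene control.

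Gene expression was measured on 1-colour Agilent arrays in RNA from the heart apex of male C57BL/6 mice aged 3 months, 4 of a control group (control 1 to 4) and 3 of a knockout group (KO 1 to 3). Both groups were homozygous for a floxed Mapk14 gene, which encodes p38α and has loxP sites around exons 2 and 3, and both were given hydroxytamoxifen (500 µg per day for 10 days, started at 6 weeks of age) and then the blood pressure raising peptide angiotensin II by osmotic pump, 1.5 mg/kg daily over 48 hours. Only the KO animals carried 1 copy of MerCreMer, a tamoxifen-inducible Cre driven in cardiomyocytes by the α-MHC promoter, so the deletion and the Cre transgene cannot be told apart, and no group without angiotensin II is included here. Each array is taken as the heart of 1 mouse, which the labels do not spell out, and the p-values measure the spread between these 7 samples.

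A level is given throughout as log2 of the processed signal minus the 75th percentile of that array, so that 0 is the upper quartile of the spots. A difference is the KO mean minus the control mean on that scale, with the standard error (SE) of the limma fit over all features; p-values were adjusted over all features by Benjamini-Hochberg and 0.05 was the threshold. Levels of different probes are not comparable, since each probe binds its target differently. All arrays shared 1 slide, and the share of probes well above background per array was 46.0% to 49.7%. On that slide the controls lay in columns 1 and 3 and the KO hearts in columns 2 and 4. Slide column and group therefore cannot be told apart.

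As a check of the labels, Mapk14 read 3.52, 3.40, 3.47 and 3.67 in the controls and 3.74, 3.76 and 3.71 in the KO hearts with its brighter probe, a difference of 0.22 ± 0.12 (SE, limma adjusted p = 0.202). Its dimmer probe differed by 0.18 ± 0.14 (limma adjusted p over all kept probes = 0.347). Neither probe was lower in the KO hearts, but where they lie relative to the deleted exons is not known here, and cells other than cardiomyocytes keep the gene, so these values check nothing about the deletion. KO below means the hearts labelled as knockout.

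Of the 9 calcium cycling genes tested, 8 were lower in the KO hearts and 0 were higher past the threshold. For all 22348 features, 25.3% passed in either direction, 15.0% lower and 10.2% higher. The median difference of the 9 genes was -0.88, and that of all features was -0.06. In all 8 genes that fell, every KO heart was below every control heart, and the remaining gene, Fkbp1b, had every KO heart above every control; among all features measured on every array, 21.4% had groups separated in the lower direction and 17.6% in the higher. In a fit over all kept probes, 15.1% passed as lower and 10.4% as higher. Of the 17 kept probes of the genes, 11 were lower and 5 did not pass; the other 1 is the dim Fkbp1b probe, which passed the filter only through the KO group, where it is high, and is left out of this count. The falls ran from 0.60 for the exchanger Slc8a1 to 2.34 for phospholamban.

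**Figure D1:**
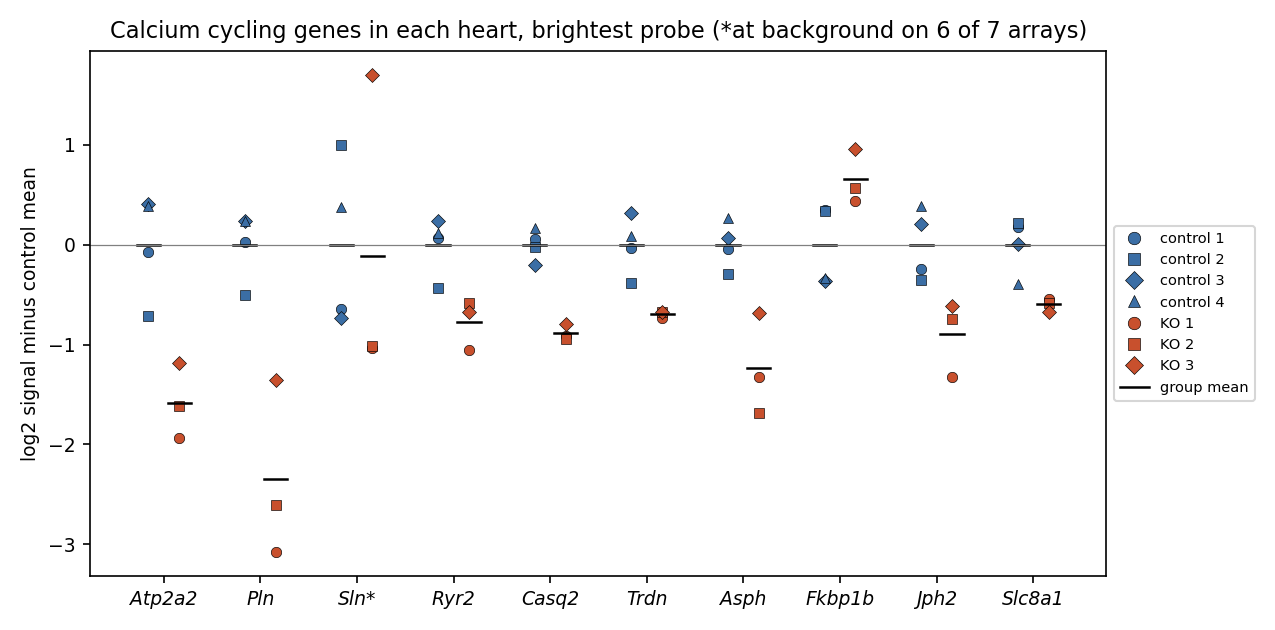
Log2 signal of each gene in each heart minus the mean of the 4 controls (vertical axis), for the brightest probe of the 10 genes (horizontal axis); each symbol is 1 heart, blue for control and red for KO, the bars are group means, and the asterisk marks Sln, which was well above background on 1 array only. The KO symbols lie below all control symbols in 8 genes and above them in Fkbp1b.

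The calls depended on which hearts were included. With KO 1 left out, 0 of the 9 genes passed in limma, and 69 of all features did, against 5643 with all hearts. With KO 2 left out only Pln and Casq2 passed, with control 1 or control 3 left out 4 genes passed, with control 4 left out 5, and with control 2 or KO 3 left out 7. In all 7 of these fits the differences of the 9 genes kept their sign. The separation of the groups in each gene fixed this in advance, so it is no sign of stability.

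**Figure D2:**
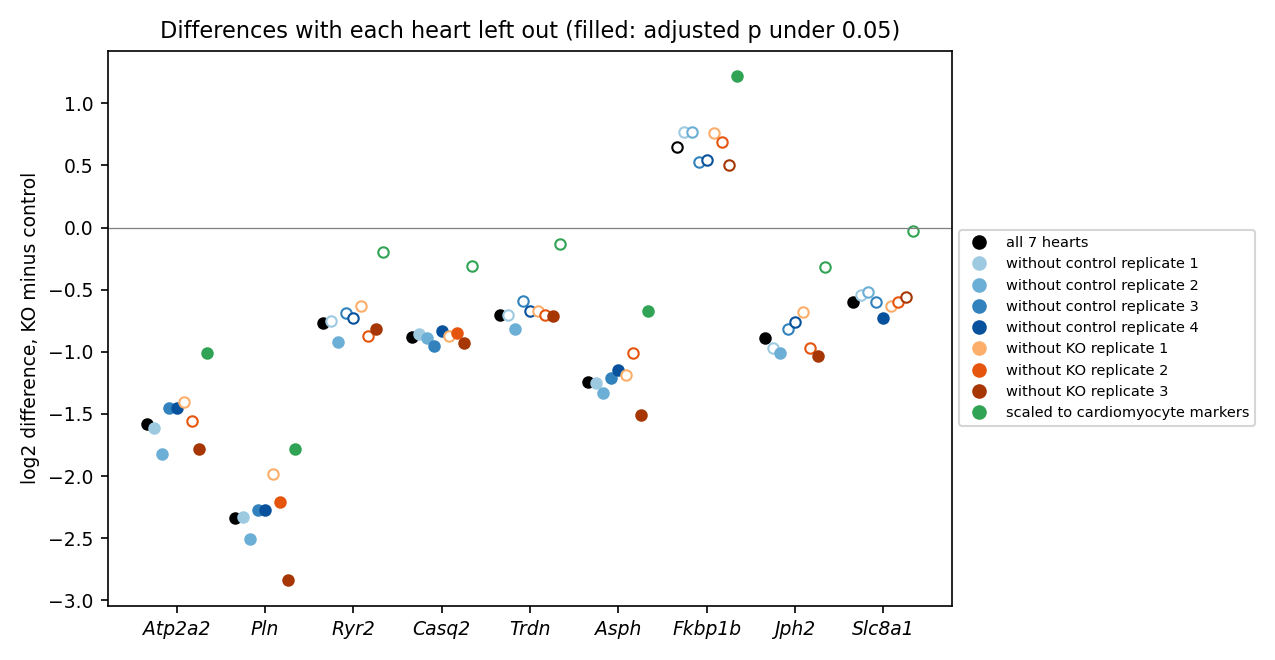
KO minus control log2 difference (vertical axis) of the 9 tested genes (horizontal axis) with all 7 hearts (black), with each heart left out in turn (blue and orange shades) and with arrays scaled to cardiomyocyte markers (green); filled symbols have a limma adjusted p under 0.05. All symbols for the fit without KO 1 are open, and Pln ranges from -2.84 to -1.98 with 1 heart left out. Each gene keeps its sign in the fits drawn, which separated groups fix in advance where 1 heart is left out.

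Because the tissue was a piece of whole heart, fewer cardiomyocytes and less RNA of a gene per cardiomyocyte cannot be told apart. All 7 ventricular cardiomyocyte markers were well above background on all arrays. Of the 5 atrial markers, Myl7 and Bmp10 were so on none, Sbk2 on 3 control arrays, and Nppa and Myl4 on all. Of the 7 cardiomyocyte markers, 2 fell, Tnni3 by 1.19 and Mybpc3 by 1.22, with a median difference of -0.37. Of all features, 15.0% passed as lower. The list's summed linear level (relative to the 75th percentile) was 5610 to 8060 in the controls and 4640 to 5420 in the KO hearts. When every array was scaled to these 7 markers, a choice made after the data were seen, Pln (-1.78), Atp2a2 (-1.01) and Asph (-0.67) still passed as lower and Ryr2 (-0.20, limma adjusted p = 0.324), Casq2 (-0.31, 0.227), Trdn (-0.13, 0.515), Jph2 (-0.32, 0.204) and Slc8a1 (-0.03, 0.931) did not. That scaling moved the median of all features to 0.51 and the lower share of calls from 59.5% to 9.15%.

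Markers of other cells are given beside the shares of all features that passed, 15.0% lower and 10.2% higher. A single call in so short a list is not read as a change of that cell type. Of 6 fibroblast markers 1 rose (summed level 314 to 475 in controls, 237 to 533 in KO), of 5 endothelial markers 1 fell (25.4 to 41.3 against 18.6 to 19.7), of 5 smooth muscle markers 1 fell (76.5 to 125 against 99.9 to 115), and of 6 macrophage and monocyte markers 1 rose (38.7 to 64.9 against 58.0 to 107). The endothelial marker that fell was Kdr (-1.19), which has the highest signal in that sum. Pecam1 (-0.21), Cdh5 (-0.09), Tie1 (-0.68) and Tek (-0.71) did not pass. Of 4 measured neutrophil markers S100a8 and S100a9 rose (114 to 177 against 102 to 177, a sum held mostly by Csf3r, which did not pass). Fpr1 passed the filter only through the KO group, where it is high, and is not counted. Of 3 measured red cell markers 3 fell (345 to 502 against 218 to 340). Of 4 measured liver markers Serpina1a fell (summed level of the list 1.21 to 3.89 against 0.182 to 0.313). Alb, Fgg and Ttr passed the filter only through the control group, where they are high, and are not counted. Of 3 measured atrial markers Nppa and Myl4 did not pass (447 to 884 against 763 to 1040, mostly Nppa). Sbk2 passed the filter only through the control group, where it is high, and is not counted. Of 2 measured skeletal muscle markers 0 passed (1.67 to 2.87 against 1.39 to 1.97), with 4 of the 7 skeletal markers at background on all arrays. The part of these marker differences in the differences of the calcium cycling genes was not tested.

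Promoter sequence is shown as context for genes with falls and for the gene with a higher KO mean, and was on hand from RefSeq (GRCm38.p6) for 6 of the 10. The promoters printed are those of Pln, with the largest fall, Casq2 and Ryr2, from the release complex, and Fkbp1b, whose difference had the opposite sign. Each is the 250 bases before the annotated start, read 5′ to 3′ on the gene's strand: Pln at chr10:53337436-53337685 (plus strand), Casq2 at chr3:102086165-102086414 (plus), Ryr2 at chr13:12106946-12107195 (minus) and Fkbp1b at chr12:4841574-4841823 (minus). Capitals mark matches to any of the MEF2 consensus, the CArG box, the GATA motif (letters GATAAG), the TATA box (TATAAA), the GC box (GGGCGG) and the CCAAT box, on either strand.
Pln: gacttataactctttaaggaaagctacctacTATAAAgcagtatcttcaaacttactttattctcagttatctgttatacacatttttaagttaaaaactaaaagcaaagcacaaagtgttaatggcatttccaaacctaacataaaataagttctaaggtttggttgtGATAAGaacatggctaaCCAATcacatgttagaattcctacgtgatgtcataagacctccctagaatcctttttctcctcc
Casq2: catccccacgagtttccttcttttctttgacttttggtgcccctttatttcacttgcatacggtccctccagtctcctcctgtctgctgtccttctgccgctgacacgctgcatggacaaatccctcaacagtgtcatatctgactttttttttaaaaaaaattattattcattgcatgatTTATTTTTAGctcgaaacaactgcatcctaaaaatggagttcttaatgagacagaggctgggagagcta
Ryr2: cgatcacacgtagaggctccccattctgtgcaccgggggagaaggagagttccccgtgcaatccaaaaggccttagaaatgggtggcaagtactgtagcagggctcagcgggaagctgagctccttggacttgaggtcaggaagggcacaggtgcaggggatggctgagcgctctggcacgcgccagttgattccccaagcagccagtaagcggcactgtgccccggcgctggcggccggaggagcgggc
Fkbp1b: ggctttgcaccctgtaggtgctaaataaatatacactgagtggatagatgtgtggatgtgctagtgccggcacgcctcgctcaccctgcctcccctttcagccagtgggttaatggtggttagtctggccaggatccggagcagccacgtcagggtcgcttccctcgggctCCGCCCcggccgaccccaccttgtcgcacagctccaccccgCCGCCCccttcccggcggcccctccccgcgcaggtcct
These windows differed in composition. GC content was 32.8% in Pln and 41.6% in Casq2 and reached 63.2% in Ryr2 and 64.8% in Fkbp1b. The Pln window held GATAAG 81 bases before the start (6.55% of 32851 mouse promoter windows of this length hold it), CCAAT 64 bases before (33.9%) and TATAAA 219 bases before (12.4%). A MEF2 consensus match stood 69 bases before the Casq2 start and in none of the other windows of these genes, against 2.92% of all promoters. Fkbp1b held GGGCGG at 79 and 38 bases before the start (32.7%), and Ryr2 held none of the marked motifs. Neither the GC box nor GATAAG was particular to 1 gene: the Jph2 windows, not printed, also held GGGCGG and CCAAT, and the Slc8a1 window held GATAAG 67 bases before its start. The letters CANNTG, which 66.2% of promoters contain, occurred in the windows of Pln, Casq2 and Ryr2 and not in that of Fkbp1b. The letters TGANTCA and CATTCC, found in 6.75% and 12.6% of promoters, and the CArG box, in 1.47%, had no match in any of the 6 genes' windows.

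Uptake into the store is the work of Atp2a2, which encodes the calcium pump SERCA2, the ATPase that refills the sarcoplasmic reticulum in each relaxation. Its brighter probe (NM_009722) read 8.17, 7.53, 8.65 and 8.64 in the controls and 6.31, 6.63 and 7.06 in the KO hearts. All 3 KO hearts lay below the lowest control, by a gap of 0.47, and control 2 was the lowest of the controls. The mean fell from 8.25 ± 0.53 (SD, n = 4) to 6.67 ± 0.38 (SD, n = 3), a difference of -1.58 ± 0.31 (SE, 95% interval -2.29 to -0.87, limma adjusted p = 0.0157), so that the KO signal was 2.99-fold lower. The processed signals were 87100 to 155000 in the controls and 34200 to 53000 in the KO hearts, and no spot of any of these probes was marked as saturated. The call was lost without KO 1 (-1.40) and without KO 2 (-1.56), with adjusted p from 0.00826 to 0.0785 over the 7 fits that leave out 1 heart.

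A second Atp2a2 probe with the same accession read 5.50, 4.87, 6.10 and 6.14 in the controls and 3.32, 3.78 and 4.37 in the KO hearts. It showed the same order of groups, with every KO heart below every control. The difference was -1.83 ± 0.36 (SE, limma adjusted p over all kept probes = 0.0161), a 3.56-fold lower signal, and it did not pass without KO 1 (-1.58) or without KO 2 (-1.81).

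Pln encodes phospholamban, the small membrane protein that holds SERCA2 in check until it is phosphorylated. It read 6.99, 6.45, 7.19 and 7.19 in the controls and 3.88, 4.35 and 5.60 in the KO hearts (NM_023129). Control 2 was the lowest control, and among the KO hearts KO 3 was the least reduced and still below the lowest control. Pln had the largest fall of the genes, from 6.96 ± 0.35 (SD, n = 4) to 4.61 ± 0.89 (SD, n = 3), a difference of -2.34 ± 0.39 (SE, 95% interval -3.26 to -1.43, limma adjusted p = 0.0127). The KO signal was 19.7% of the control signal, 5.08-fold lower, and 0.528% of all features had a lower difference. The call was lost only without KO 1 (-1.98, adjusted p = 0.0649) among the 7 fits with 1 heart left out, in which the adjusted p ran from 0.00286 to 0.0649.

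Sln encodes sarcolipin, a relative of phospholamban that in the mouse is found mainly in the atria. Its only probe (NM_025540) had processed signals of 5.38, 19.9, 4.36 and 10.7 in the controls and 4.46, 4.44 and 27.4 in the KO hearts. It was well above background only in KO 3, on 0 of 4 control arrays and 1 of 3 KO arrays. No fold change or test is given for it, and its ratios to Atp2a2 and Pln were not computed for the same reason. Of the 5 atrial markers, Nppa and Myl4 were well above background on all 7 arrays, Sbk2 on 3 control arrays, and Myl7 and Bmp10 on none.

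The ratio of phospholamban to its pump was compared within each array, which removes the scaling between arrays. Relative to the mean control ratio, log2 of Pln over Atp2a2 was 0.11, 0.22, -0.17 and -0.15 in the controls and -1.14, -0.99 and -0.16 in the KO hearts. KO 1 and KO 2 stood clearly below the controls, whereas KO 3 lay among them. The ratio differed by -0.76 (SD 0.19 in controls, 0.52 in KO), which did not pass: the exact two-sided permutation p was 0.0571, and 0.152 after adjustment over the 8 pairs of genes compared, where 0.0286 is the smallest p that 35 splits allow.

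Release begins at Ryr2, the cardiac ryanodine receptor, the channel through which stored calcium leaves the sarcoplasmic reticulum. It read 5.24, 4.74, 5.42 and 5.29 in the controls and 4.12, 4.59 and 4.50 in the KO hearts (NM_023868). The groups did not overlap, but the gap between control 2 and KO 2 was only 0.15. The difference was -0.77 ± 0.20 (SE, 95% interval -1.24 to -0.31, limma adjusted p = 0.0304), a 1.71-fold lower signal. Leaving out 1 heart gave differences from -0.92 to -0.63, and the call held only without control 2 or without KO 3, with adjusted p from 0.0119 to 0.126.

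Casq2 encodes cardiac calsequestrin, the protein that buffers calcium inside the store next to the release channel. It read 6.40, 6.32, 6.14 and 6.51 in the controls and 5.43, 5.40 and 5.55 in the KO hearts (NM_009814). Both groups were tight and lay 0.59 apart. The difference was -0.88 ± 0.14 (SE, 95% interval -1.20 to -0.57, limma adjusted p = 0.0123), a 1.84-fold lower signal, and only without KO 1 was the call lost when 1 heart was left out (-0.87, adjusted p = 0.0649; 0.00947 to 0.0649 over the 7 fits).

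Trdn encodes triadin, which ties calsequestrin to the ryanodine receptor. Its brighter probe (NM_029726) read 3.76, 3.41, 4.11 and 3.87 in the controls and 3.05, 3.11 and 3.11 in the KO hearts. The 3 KO hearts were almost alike and all below the lowest control. The difference was -0.70 ± 0.18 (SE, 95% interval -1.10 to -0.29, limma adjusted p = 0.0278), and the call held only without control 2 or KO 3 when 1 heart was left out (-0.82 to -0.59, adjusted p up to 0.111). A dim second probe with the same accession overlapped between groups (-2.88 to -2.24 in the controls, -2.86 to -2.19 in KO) and differed by -0.12 ± 0.22 (SE, 95% interval -0.63 to 0.39, limma adjusted p over all kept probes = 0.694). The mean of both probes gave -0.41 and did not pass (limma adjusted p = 0.0705). Over all alternatives the limma adjusted p of the Trdn difference ran from 0.00268 to 0.515.

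Asph is a complex locus that encodes junctin, a partner of triadin at the release channel, and junctate, besides the enzyme aspartate β-hydroxylase, and its 4 probes carry accessions of different transcripts. The brightest (NM_133723) read 4.44, 4.19, 4.54 and 4.74 in the controls and 3.15, 2.79 and 3.79 in the KO hearts. All KO hearts were below the controls and KO 2 was the lowest. The difference was -1.24 ± 0.25 (SE, 95% interval -1.81 to -0.66, limma adjusted p = 0.0166), a 2.35-fold lower signal, lost without KO 1 and without KO 2 (-1.51 to -1.01 and adjusted p 0.00560 to 0.0814 over the fits with 1 heart left out).

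The other Asph probes did not move equally. The probe for NM_001177855 read 3.16, 3.00, 3.49 and 3.74 in the controls and 1.59, 1.40 and 2.28 in the KO hearts, without overlap. It had the largest fall of the 4 probes, -1.59 ± 0.26 (SE, limma adjusted p over all kept probes = 0.0126), or 3.01-fold, lost without KO 1 (-1.51). The probe for NM_001177850 read 3.24, 3.11, 3.36 and 3.48 against 2.69, 2.64 and 2.76, again without overlap, and fell by 0.60 ± 0.14 (SE, same fit, adjusted p = 0.0209), or 1.52-fold; its call was lost without control 3, control 4, KO 1 or KO 2 (-0.60 to -0.54). The probe for NM_023066 read 1.41, 1.46, 1.10 and 1.21 against 1.24, 0.99 and 1.42; the groups overlapped, and the difference was -0.08 ± 0.16 (SE, 95% interval -0.44 to 0.29, adjusted p = 0.728). Which of these transcripts encodes junctin is not given by the files.

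**Figure D3:**
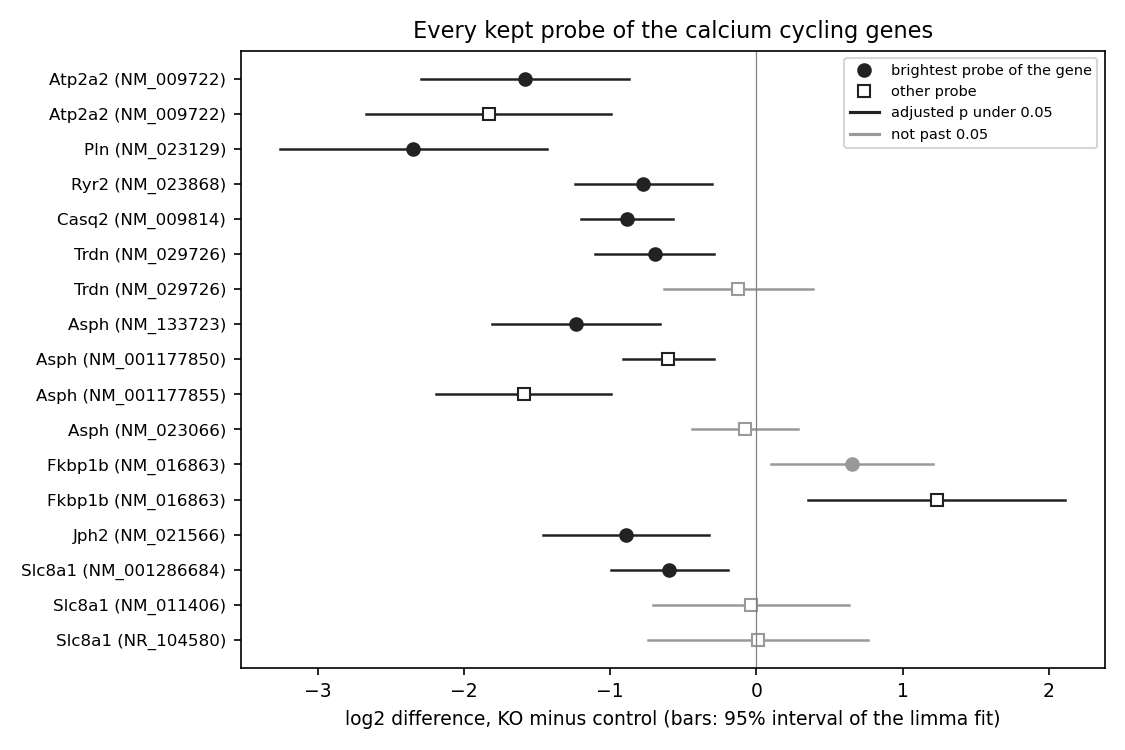
KO minus control log2 difference (horizontal axis) of the 17 kept probes, labelled by gene and RefSeq accession, with bars for the 95% interval of the limma fit; filled circles are the brightest probe of a gene, open squares its other probes, and grey marks an adjusted p above 0.05. The Asph probes spread from -1.59 to -0.08, and the Slc8a1 probes from -0.60 to 0.01. The open Fkbp1b square is the dim probe kept only through the KO group. It is drawn as a description, and its interval and dark colour are not read as a test.

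Within each array, the 3 other Asph probes were set against NM_133723, in a family of 8 probe pairs that was compared after the values had been seen. The ratio of NM_023066 to NM_133723 was higher in the KO hearts by 1.16, that of NM_001177850 by 0.63, and that of NM_001177855 was lower by 0.36. Each of the 3 had the smallest exact permutation p possible, 0.0286 two-sided, and 0.0457 after adjustment over the 8 pairs. The ratio of the pair of Atp2a2 probes, which share an accession, also differed with that p, by -0.25. That of the pair of Trdn probes, which also share an accession, differed by 0.57 (exact p = 0.171, adjusted 0.171). The Fkbp1b pair is part of the 8 but is not used here, because its dim probe was kept only through the KO group. Its difference of 0.58 became -0.20 with normexp background correction. The ratio between the 2 Trdn probes of 1 accession thus came near the 0.63 of NM_001177850, and that between the Atp2a2 probes also reached the smallest p. The ratios between accessions are therefore not read as differences between transcripts. With normexp background correction the exact p of the NM_001177850 ratio was 0.0571 and its difference 0.56.

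Fkbp1b encodes calstabin, the small binding protein that steadies the closed state of the ryanodine receptor. Its brighter probe (NM_016863) read -0.30, -0.31, -1.01 and -0.98 in the controls and -0.22, -0.08 and 0.30 in the KO hearts. It was the single gene of the 9 with a higher KO mean, and its groups were separated by only 0.08. The difference of 0.65 ± 0.24 (SE, 95% interval 0.10 to 1.21) did not pass (limma adjusted p = 0.0788; it passed with slide column as a random block, 0.62, adjusted p = 0.0364, and when scaled to cardiomyocyte markers, 1.22, adjusted p = 0.0167, in a range of 0.0167 to 0.285 over all alternatives). Each slide column held hearts of 1 group only, so the random block cannot separate column from group. The pass with that block is not read as support. By slide row the Fkbp1b difference was 0.09 in the first row (control 1, control 2 and KO 1) and 1.11 in the second (control 3, control 4, KO 2 and KO 3). Differences of the other 8 genes had 1 sign in both rows, as their separated groups require. They ran from -2.84 to -0.53 in the first row and from -2.21 to -0.43 in the second. Controls 3 and 4, low for Fkbp1b, were also low for the macrophage genes Cd68 and Ccr2 and for the collagen gene Col1a1; the part of this in the Fkbp1b difference was not tested.

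A dimmer Fkbp1b probe with the same accession read -4.12, -4.19, -5.03 and -5.72 in the controls and -3.78, -3.45 and -3.36 in the KO hearts. It was well above background on only 1 of 4 control arrays but on 3 of 3 KO arrays, and it passed the filter through the KO group alone. Its signal in the other 3 controls was at background, so no test or fold is given for it; with normexp background correction its difference was 0.29, against 1.23 without.

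Jph2 encodes junctophilin, which bridges the sarcoplasmic reticulum and the T-tubule membrane so that the L-type channel faces the ryanodine receptor. It read 2.11, 2.00, 2.56 and 2.74 in the controls and 1.03, 1.61 and 1.74 in the KO hearts (NM_021566). The groups were separated by 0.26, with controls 3 and 4 the highest and KO 1 the lowest. The difference was -0.89 ± 0.25 (SE, 95% interval -1.46 to -0.32, limma adjusted p = 0.0355), a 1.86-fold lower signal, and the call held only without control 2 or KO 3 when 1 heart was left out (-1.03 to -0.68, adjusted p 0.0252 to 0.138).

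Slc8a1 encodes NCX1, the exchanger that trades calcium for sodium at the cell surface. Its brightest probe (NM_001286684) read 1.19, 1.23, 1.02 and 0.62 in the controls and 0.47, 0.43 and 0.35 in the KO hearts. Control 4 was the lowest control and lay 0.14 above the nearest KO heart. The difference was -0.60 ± 0.17 (SE, 95% interval -1.00 to -0.20, limma adjusted p = 0.0408), a 1.51-fold lower signal. This was the least stable of the 8 calls: with 1 heart left out it held only without control 4 (-0.73 to -0.52, adjusted p 0.0340 to 0.122), and it was lost with median centring (-0.51, 0.0949) and with the mean over probes (-0.21, 0.537), in a range of 0.00590 to 0.931 over all alternatives.

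The remaining Slc8a1 probes showed no such fall. The probe for NM_011406 read -0.74, -0.60, -1.10 and -1.48 in the controls and -0.44, -1.18 and -1.42 in the KO hearts, a difference of -0.04 ± 0.29 (SE, 95% interval -0.70 to 0.63, limma adjusted p over all kept probes = 0.937). The probe for the noncoding transcript NR_104580 read -1.95, -1.43, -1.69 and -2.84 against -1.91, -1.72 and -2.27, a difference of 0.01 ± 0.33 (SE, 95% interval -0.74 to 0.76, adjusted p = 0.984). In both probes the groups overlapped. Within arrays, the ratio of NM_011406 to NM_001286684 was higher in the KO hearts by 0.56 (exact two-sided permutation p = 0.0286, adjusted 0.0457) and that of NR_104580 by 0.61 (exact p = 0.0857, adjusted 0.0980). The first of these was 0.30 without KO 1 and 0.73 without KO 3. Both ratios belong to the probe pairs compared after the values had been seen. Like the Asph ratios, they are not read as differences between transcripts.

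Ratios between genes of the cycle were compared within arrays for 8 pairs, and none passed after adjustment. Log2 of Ryr2 over Atp2a2, release channel over pump, was 0.15, 0.29, -0.16 and -0.27 in the controls relative to their mean and 0.88, 1.03 and 0.51 in the KO hearts. The groups did not overlap, and the ratio was higher by 0.81 (exact two-sided permutation p = 0.0286, the smallest possible; adjusted 0.152), the pump having the larger fall of the pair. Log2 of Fkbp1b over Ryr2 was 0.28, 0.77, -0.60 and -0.45 against 1.49, 1.16 and 1.63. These groups were also separated, and the ratio differed by 1.43 (exact p = 0.0571, adjusted 0.152).

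The other 5 ratios overlapped between groups. Slc8a1 over Atp2a2 differed by 0.98 (exact permutation p = 0.114, adjusted 0.183), with controls spread by an SD of 0.76. Of the release complex, Casq2 over Ryr2 differed by -0.11 (exact p = 0.657), Trdn over Ryr2 by 0.08 (0.657) and Jph2 over Ryr2 by -0.12 (0.514), each with an adjusted p of 0.657. The SD between hearts of those 3 ratios was 0.08 to 0.35 in the groups, larger than or close to the differences. Asph over Ryr2 differed by -0.46 (exact p = 0.114, adjusted 0.183), with KO 2 at -1.10 and KO 3 at -0.01.

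**Figure D4:**
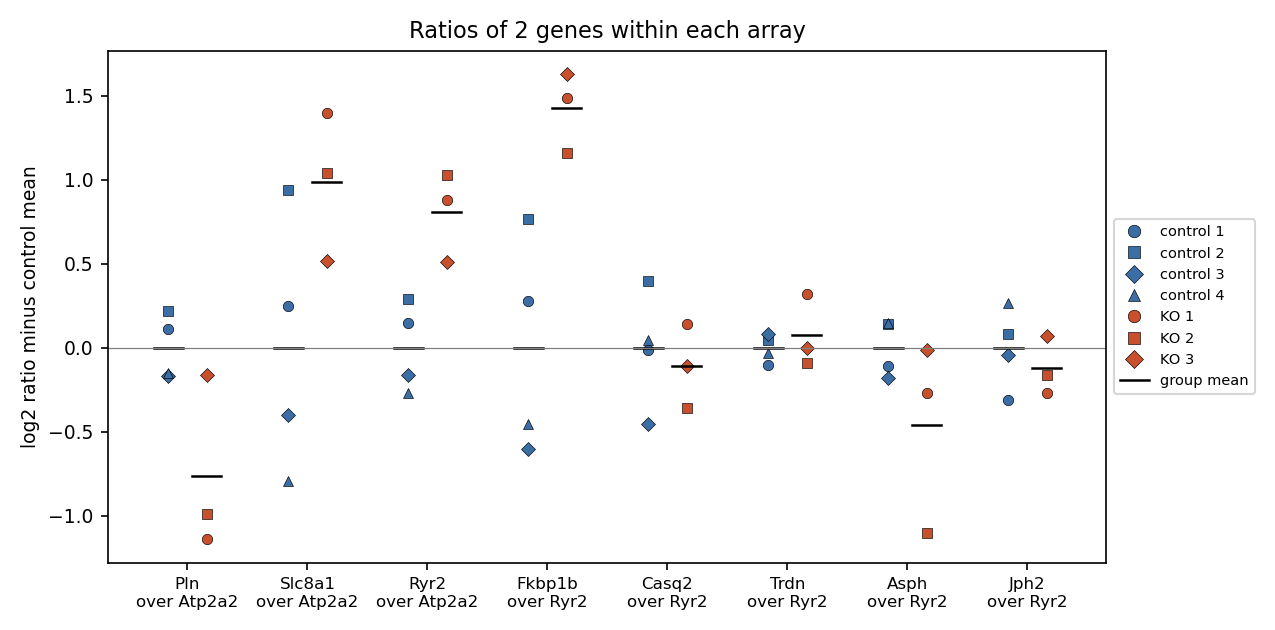
Log2 ratio of 2 genes within each array, minus the mean of the controls (vertical axis), for the 8 pairs (horizontal axis); each point is 1 heart. Ryr2 over Atp2a2 and Fkbp1b over Ryr2 have all 3 KO hearts above the controls, while the ratios of Casq2, Trdn and Jph2 to Ryr2 overlap.

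Beyond the 10 genes, 56 further calcium handling genes were listed and 51 were measured. Of these 51, 11 fell, 4 rose and 36 did not pass, with a median difference of -0.12. Over all features 15.0% passed as lower and 10.2% as higher with a median of -0.06, and nothing particular to this list is read from its counts. Those with the lowest p included Srl, which encodes sarcalumenin, a calcium-binding protein of the store (-1.28 ± 0.20 SE, limma adjusted p = 0.0123); it read 6.17 to 6.53 in the controls and 4.75 to 5.47 in the KO hearts. Tmem38a, the TRIC-A potassium channel of the sarcoplasmic reticulum, read 6.79, 6.30, 7.12 and 7.18 in the controls and 4.86, 5.12 and 5.73 in the KO hearts and fell by 1.61 ± 0.28 (SE, adjusted p = 0.0135). Its paralogue Tmem38b, TRIC-B, ran the other way, from -2.30 to -1.90 in the controls to -1.51 to -1.06 in the KO hearts, and rose by 0.85 ± 0.16 (SE, adjusted p = 0.0151). The call for each of these 3 was lost without KO 1, and that for Tmem38b also without KO 2; their differences over the fits with 1 heart left out were -1.50 to -1.14, -1.85 to -1.42 and 0.74 to 0.97. When scaled to cardiomyocyte markers the differences of Srl, Tmem38a and Tmem38b were -0.71, -1.04 and 1.42.

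Among genes that act on the pump and its partners, Hrc, a calcium-binding protein of the store, read 7.53, 6.84, 8.22 and 8.34 in the controls and 6.31, 6.64 and 6.53 in the KO hearts. Its groups lay close, and the difference of -1.24 ± 0.35 (SE, limma adjusted p = 0.0374) held only without control 2 when 1 heart was left out (-1.54 to -1.04, adjusted p 0.00952 to 0.136) and was lost when scaled to cardiomyocyte markers (-0.67, 0.0653). Akap7, an anchor for protein kinase A, fell by 1.38 ± 0.27 (SE, adjusted p = 0.0163), a call lost without KO 1 (-1.38) or KO 2 (-1.44), and the difference was -0.74 with the mean over probes and -0.81 when scaled to cardiomyocyte markers. Cacna1c, the pore of the L-type channel, fell by 0.90 ± 0.17 (SE, adjusted p = 0.0148), lost without KO 1 (-0.75) and when scaled to cardiomyocyte markers (-0.33, adjusted p = 0.118, in a range of 0.000763 to 0.118 over all alternatives). S100a1, a calcium sensor that binds SERCA2 and Ryr2, differed by -0.64 ± 0.22 (SE, adjusted p = 0.0635) and Camk2d, the main cardiac calmodulin-dependent kinase, by -0.23 ± 0.13 (SE, adjusted p = 0.230); neither passed, though S100a1 did under 5 of 22 alternatives (adjusted p 0.0137 to 0.765 over all), S100a1 was -0.08 when scaled to cardiomyocyte markers, and Camk2d turned to 0.10 with the mean over probes and to 0.34 with scaling to cardiomyocyte markers.

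The other 3 genes that rose, named after their values were seen, were Bin1, a T-tubule membrane shaper, by 1.04 ± 0.29 (SE, limma adjusted p = 0.0359), Camk2g by 0.53 ± 0.14 (SE, 0.0339) and the exchanger Slc8a2 by 0.79 ± 0.24 (SE, 0.0476). Bin1 passed in 1 of the 7 fits with 1 heart left out (0.88 to 1.24), Camk2g in 2 (0.47 to 0.60) and Slc8a2 in 1 (0.64 to 0.93), and when scaled to cardiomyocyte markers the differences were 1.61, 1.10 and 1.36. Atp2a1, the pump of fast skeletal muscle, read 3.79, 3.29, 4.56 and 4.67 in the controls and 1.70, 2.34 and 2.71 in the KO hearts, and fell by 1.83 ± 0.38 (SE, limma adjusted p = 0.0180; lost without KO 1, -1.55, and KO 2, -1.87). Its order of hearts ran close to that of Atp2a2, while of the 7 skeletal markers Tnni2 and Tnnt3 were well above background on all arrays and did not pass, Mylpf was on 2 control arrays, and Myh1, Myh2, Myh4 and Actn3 were on none; whether the Atp2a1 probe also binds the related Atp2a2 transcript was not tested.

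The named genes most like Atp2a2 in how hearts of a group differed, by Pearson's r of group-centred log2 values over 7 hearts among 13095 genes, were Chchd3 (r = 0.997), a protein of the mitochondrial inner membrane, Art5 (0.996), an ADP-ribosyltransferase, and Eno3 (0.996), the muscle enolase. Centring removes the group difference, so likeness here rests on the spread within groups, which for Atp2a2 means controls 3 and 4 and KO 3 high and control 2 and KO 1 low for their group. All 3 were also lower in the KO hearts, by 1.16, 1.45 and 1.46 (limma adjusted p = 0.0126, 0.0224 and 0.0146). Of all features, 15.0% passed as lower. The 3 were picked as the highest r of 13095 genes, and shared control with Atp2a2 was not tested.

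**Figure D5:**
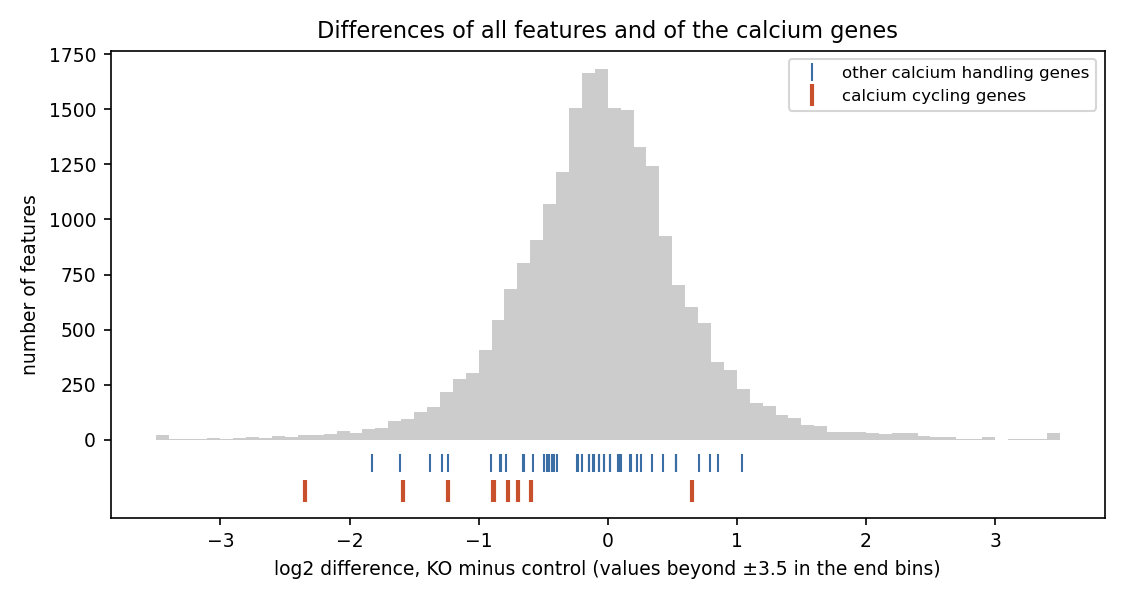
Histogram of the KO minus control log2 difference (horizontal axis) of all 22348 features (grey, vertical axis: number of features, with values beyond the range drawn put in the end bins); ticks beneath mark the 51 other calcium handling genes (blue) and the 9 tested calcium cycling genes (red). Pln at -2.34 and Atp2a2 at -1.58 lie in the lower tail, 8 of the 9 red ticks are below 0, and Fkbp1b at 0.65 is above it.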

How the data were processed

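RNA from the heart apex of 4 control and 3 KO mice, both after angiotensin II, was hybridised to 1-colour arrays (100 ng RNA per labelling, per the labels). Per the file headers, the authors read the arrays with Agilent Feature Extraction 11.0.1.1; the deposited intensity used is its background-subtracted processed signal, of 62976 spots per array, 3671 of them control spots. The deposited value table holds log2 values of unstated scale, centring and direction; set against the scanner values of 15000 probes, its columns correlated at 0.986 to 0.998 with slopes of 0.962 to 1.01, so higher means more signal, while the target of its scaling stays unknown. Its column medians were 0 except 0.00793 in control 4 and -0.00210 in KO 2.

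Log2 signals minus each array's 75th percentile were used, without control spots and outlier flags; spots of 1 probe were averaged. Probes were named through the RefSeq accession (28026 with 1 symbol, 27655 with none, 0 with several). Each gene is its brightest kept probe; its other probes come from a fit over all 26580 kept probes. KO and control were compared with limma 3.58.1 in R 4.3.3 (lmFit, eBayes). Ratios were compared by exact two-sided permutation over 35 splits. Scripts were tested on simulated data. The number of arrays limits the precision.

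The genes and lists were chosen with earlier results of these data known. Named are the 10 members with every probe, the up to 6 other calcium handling genes of lowest p among those that passed, Hrc, Tmem38a, Srl, S100a1, Cacna1c and Camk2d, the 3 genes most like Atp2a2, and defining markers of the ventricular cardiomyocyte, atrial, skeletal muscle, fibroblast, endothelial, smooth muscle, macrophage, neutrophil, liver and red cell lists; likeness to Sln was left out, as it was at background. Replicate numbers were not used as pairs in the main setting. Alternatives were normexp (offset 50, on the median spot signal), quantile normalization, median centring, filters, the value table, means over probes, variance models, weights, blocks, an unmoderated test, a threshold of 0.1 and each heart left out; scaling to cardiomyocyte markers, slide column as a random block and the probe ratios were added after seeing the data. Per the design text 4 KO hearts were harvested. The series holds 3 KO samples, and all 3 are used here.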

Additional observations from a re-analysis of the deposited data

How the results depend on the processing

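Of the 9 tested genes, all kept their direction under all 22 alternatives. Many of these could not change it. Leaving out 1 heart could not, because the groups were separated. The filters, the variance model and the unmoderated test left the differences as they were. Of all features, 5643 passed with the main setting, 1415 with no filter, 12001 with array weights, 90 with the unmoderated test, 8733 at a threshold of 0.1, 10258 when scaled to cardiomyocyte markers and 9217 with slide column as a random block (consensus correlation -0.284). Each slide column held 1 group only, so counts with that random block, here and below, are given as a description only. With 1 heart left out the count of all features was 69 (without KO 1) to 6972 (without control 2).

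Of the calcium cycling genes, 8 were lower with the main setting, 3 with no filter, 0 with the unmoderated test, 3 when scaled to cardiomyocyte markers and 0 to 7 with 1 heart left out. The count of higher genes was 0 in the main setting and 1 at a threshold of 0.1, when scaled to cardiomyocyte markers and with slide column as a random block, in each case Fkbp1b. Of the 51 other calcium handling genes, 11 were lower: 3 with no filter, 18 with array weights, 0 with the unmoderated test, 4 when scaled to cardiomyocyte markers, 17 with the random block and 0 to 14 with 1 heart left out. The count of 4 higher became 1 with no filter, 8 with array weights, 0 with the unmoderated test, 8 with slide row as a block, 18 when scaled to cardiomyocyte markers, 8 with the random block and 0 to 6 with 1 heart left out.

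Replicate numbers were checked as pairs: the correlations of same-numbered hearts' deviations were 0.185, -0.224 and -0.197. Hearts of 1 number thus showed little shared deviation, which cannot show that no pairing or other grouping of the animals exists. With the number as a replicate block 9 features passed, 0 of the calcium cycling genes were lower, and 0 and 0 of the other calcium handling genes were lower and higher.

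Pln over Atp2a2 passed an unadjusted exact test with quantile normalization (-0.86) and with the authors' value table (-0.85). With 1 heart left out the ratios were -1.06 to -0.58 for Pln over Atp2a2, 0.72 to 1.30 for Slc8a1 over Atp2a2, 0.70 to 0.96 for Ryr2 over Atp2a2, 1.22 to 1.68 for Fkbp1b over Ryr2, -0.26 to 0.02 for Casq2 over Ryr2, -0.04 to 0.16 for Trdn over Ryr2, -0.69 to -0.14 for Asph over Ryr2 and -0.22 to -0.03 for Jph2 over Ryr2. Differences near 0 changed sign: Camk2d to 0.10 with the mean over probes and 0.34 when scaled to cardiomyocyte markers, the Asph NM_023066 probe to 0.01 and the Slc8a1 NM_011406 probe to 0.06 with median centring, the Slc8a1 NR_104580 probe to -0.06 with normexp, and the ratio of the Fkbp1b probes to -0.20 with normexp. With 1 heart left out, the probes near 0 ranged from -0.33 to 0.00 (dim Trdn probe), -0.18 to 0.03 (Asph NM_023066), -0.32 to 0.17 (Slc8a1 NM_011406) and -0.28 to 0.19 (Slc8a1 NR_104580). The cause was not tested. The dim probes of Fkbp1b and Sln lie near the background, where signal over background limits what can be read. The dim Trdn probe was well above background on 4 of 4 control and 3 of 3 KO arrays.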
